A study of Mus musculus with 18 samples.

Results

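Interleukin 27 (IL-27) was compared directly with interleukin 6 (IL-6) in wild type (WT) naive CD4 T cells, on the 6 arrays of WT cells that received either cytokine, out of 18 arrays in the series. Genes were read from all probe sets with 1 gene symbol, and 11971 of the 18193 such genes passed a filter on dim signals and were tested. The cells were taken from spleen and lymph nodes of C57BL/6J mice, sorted as naive CD4+CD44-CD25- cells, and held for 3 h with IL-6 at 20 ng/ml (3 arrays) or with IL-27 at 20 ng/ml (3 arrays). Total RNA was labelled with biotin and read on Affymetrix 430 2.0 mouse arrays. WT cells in medium alone (3 arrays) gave the background, and the same 3 conditions in STAT3-deficient cells (3 arrays each) served for a test of whether the difference between the cytokines depended on genotype. The STAT3-deficient strain is given as Cd4-Cre_C57BL6-STAT3<tm1Dlv>, in which the Cd4 promoter drives the recombinase, and the labels name no altered allele for WT cells. No stimulus other than the cytokines is named, and the labels are silent on age, sex and pooling of the mice. The series calls its samples biological triplicates, and the labels do not say which mice or cultures they came from, so p-values measure the spread between these samples.

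Both cytokines act through gp130, the receptor chain that Il6st encodes, which IL-6 pairs with the chain encoded by Il6ra and IL-27 with the chain encoded by Il27ra. JAK kinases on these chains activate STAT3 and other STAT factors, which bind palindromic GAS elements. STAT2 and IRF9 belong to a complex that binds interferon-stimulated response elements (ISRE), and the feedback inhibitors SOCS1 and SOCS3 dampen the receptors. IL-6 is known for its part in Th17 and follicular helper differentiation, and IL-27 for inducing T-bet, PD-L1 and IL-10 in CD4 T cells.

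Promoter stretches are shown for genes at both ends of the comparison, because the families described below moved together. Apart from Cd274 and Socs3, they were picked for large differences and for holding a match. Many genes with large differences had no match in their windows, among them Gadd45g, Igfbp4, Samsn1, Myo6, Slc30a4, Rragd and AW112010. The motifs were TTCNNNGAA for GAS and GAAANNGAA for ISRE, on both strands, in RefSeq windows from 250 bases before to 50 bases after each gene start (GRCm38.p6). Bases in capitals match a motif or its reverse complement, and each stretch is written 5′ to 3′ on the strand of its gene. Among genes higher with IL-27 they are Cd274 at chr19:29367342-29367390 (plus strand), Irgm1 at chr11:48871416-48871470 (minus), Cxcl10 at chr5:92349074-92349122 (minus), Irgm2 at chr11:58214882-58214941 (plus) and Igtp at chr11:58199491-58199550 (plus). Among genes lower with IL-27 they are Gzma at chr13:113101019-113101097 (minus), Plscr1 at chr9:92250084-92250132 (plus) and Socs3 at chr11:117969492-117969540 (minus).
Cd274: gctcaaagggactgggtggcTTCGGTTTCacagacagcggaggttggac
Irgm1: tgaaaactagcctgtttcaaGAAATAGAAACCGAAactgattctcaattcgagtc
Cxcl10: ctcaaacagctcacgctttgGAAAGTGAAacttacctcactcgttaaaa
Irgm2: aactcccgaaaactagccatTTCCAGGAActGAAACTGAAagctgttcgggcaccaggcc
Igtp: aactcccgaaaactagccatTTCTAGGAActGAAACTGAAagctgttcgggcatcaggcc
Gzma: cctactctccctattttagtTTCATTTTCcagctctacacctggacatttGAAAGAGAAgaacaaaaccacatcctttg
Plscr1: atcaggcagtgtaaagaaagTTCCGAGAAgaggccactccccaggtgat
Socs3: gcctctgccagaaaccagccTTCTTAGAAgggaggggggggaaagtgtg
The Cd274, Irgm1 and Cxcl10 stretches hold ISRE matches and no GAS match, with 2 overlapping ISRE matches in Irgm1. The Irgm2 and Igtp stretches each hold a GAS match followed by an ISRE match, and the pair agree at 58 of 60 bases. Igtp was added after its values were seen, for its likeness to Irgm2. The Gzma stretch holds 2 ISRE matches, while Plscr1 and Socs3 hold a GAS match each. A match is a description of letters and not a binding site.

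Values are normalised signal units per array, and differences are IL-27 minus IL-6 on the scale of log2(signal + 32), given ± the standard error (SE) from the limma fit, each group having 3 arrays. The median deposited signal lay between 107.8 and 126.1 on the IL-6 arrays and between 108.2 and 126.8 on the IL-27 arrays, and precision is limited by having 3 arrays per condition. Correlations between replicate arrays ran from 0.975 to 0.978 with IL-6 and from 0.970 to 0.976 with IL-27. The first principal component of the 6 arrays held 31.2% of the variance and separated the cytokines. Of the 10 naive CD4 T cell markers tested, Cd28 and Cd5 were called, and the summed signal of all 10 lay between 133770 and 139290 in medium, 90971 and 93837 with IL-6, and 99753 and 106180 with IL-27. None of the 14 B cell markers tested was called in limma (2 at an unadjusted p under 0.05, both higher with IL-27). Their sum was 3934 to 4404 with IL-6, 4920 to 5849 with IL-27 and 6442 to 6953 in medium, and Pax5, Ebf1 and Blnk fell below the filter on dim signals. Most of the B cell sum in each condition was Ighm, at 2479, 2891 and 2355 with IL-6 and 3835, 3831 and 3213 with IL-27. The sum thus mainly repeats that gene. Of 13 myeloid and dendritic cell markers, Ctss alone was called, with signals of 10673, 10144 and 9711 with IL-6 and 14542, 13050 and 13763 with IL-27. The myeloid sum was 9021 to 10535 in medium, 10694 to 11691 with IL-6 and 14051 to 15625 with IL-27, and Itgam, Cd14, Csf3r and Flt3 fell below the filter. Ctss made up most of this sum in each condition, so the sum mainly repeats that gene. The Ctss call was lost without any one array except IL-27 replicate 2, with an adjusted p between 0.0503 and 0.127. No CD8 T or NK cell marker was called among 7 (2 at an unadjusted p under 0.05), and Ncr1, Klre1, Klra1 and Nkg7 fell below the filter. The part of these cells in the results was not tested, and in such samples fewer cells of a type and less RNA per cell cannot be told apart.

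IL-27 and IL-6 left WT cells with different levels of 376 of the 11971 genes tested (3.14%), at an adjusted p under 0.05 (limma, Benjamini-Hochberg adjustment over all genes). Levels were higher with IL-27 for 212 genes (1.77%) and lower for 164 (1.37%). Of these, 58 and 44 genes differed by at least 2-fold, and 10 in each direction by at least 4-fold. The shares of 1.77% higher and 1.37% lower are the background for each count of called list members below. In all 376 the 3 arrays of one cytokine lay beyond the 3 of the other, an order seen in 9.28% of all genes for IL-27 above IL-6 and in 9.21% for IL-6 above IL-27. Relative to medium, the genes higher with IL-27 had a median change of 0.52 with IL-27 and −0.25 with IL-6. The genes lower with IL-27 had a median change of 0.17 with IL-27 and 0.89 with IL-6. These medians share the arrays that chose the genes and are a description. Leaving out each of the 6 arrays in turn gave 154 to 171 genes higher and 123 to 141 lower, and 124 and 99 genes were called in every one of those fits. Centring each array on its median in place of quantile normalisation gave 102 higher and 103 lower. A second probe set passed the filter for 211 of the called genes, and of those 381 further probe sets 364 had the same direction. Only 137 of the 381 were called the same way, and 0 the other way.

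**Figure D1:**
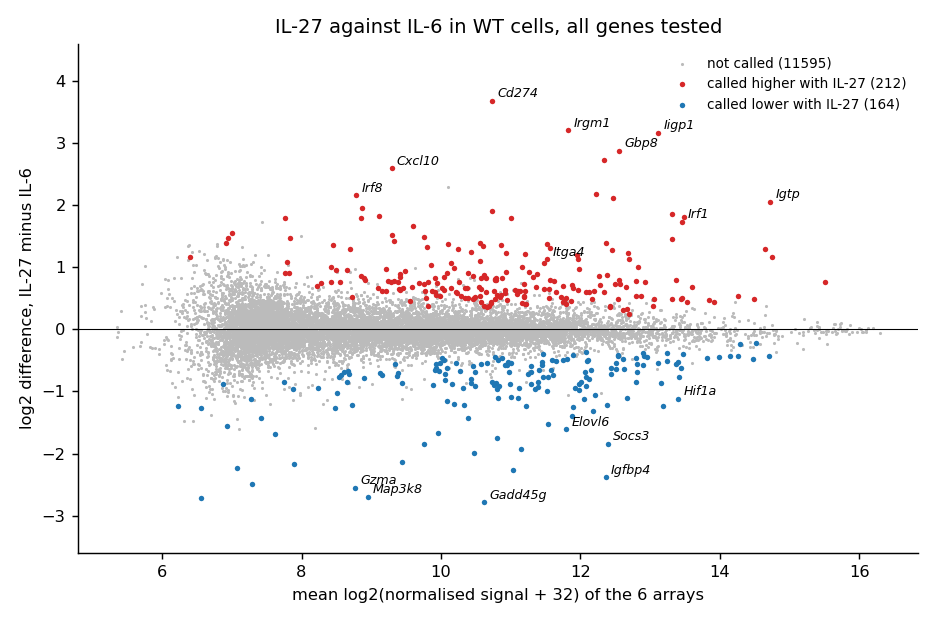
Difference between IL-27 and IL-6 in WT cells (y axis, log2 of signal plus 32) against the mean level (x axis, same scale) for the 11971 genes tested, one dot per gene, red for the 212 called higher with IL-27, blue for the 164 called lower and grey for the others. Both called groups spread over the range of levels, and the largest difference is that of Cd274 at 3.68.

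The gene with the largest difference was Cd274, which encodes PD-L1, the ligand of the inhibitory receptor PD-1. Its signals were 356, 267 and 233 in medium, 431, 503 and 403 with IL-6, and 6080, 5908 and 6226 with IL-27. All 3 IL-27 arrays stood far above the other 6, and IL-6 lay just above medium without overlap. The difference was 3.68 ± 0.17, or 12.8-fold (adjusted p = 7.51e-11), with changes from medium of 0.60 with IL-6 and 4.28 with IL-27. Pdcd1lg2, which encodes the second PD-1 ligand, PD-L2, was measured at 97.4, 63.8 and 89.9 with IL-6 and at 155, 149 and 167 with IL-27. Its groups did not overlap, but the difference of 0.72 ± 0.22 was not called (adjusted p = 0.0917).

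Cd274 belongs to a list of 34 checkpoint and costimulatory molecules, of which 29 were tested. There 6 were higher and 1 lower with IL-27, and the median difference was 0.06, against −0.01 over all genes. Lgals9, which encodes galectin-9, had signals of 1309, 1265 and 1321 with IL-6 and 2448, 2322 and 2105 with IL-27, while medium gave 1274, 1241 and 1543. IL-6 left it at the level of medium and IL-27 raised it, with a difference of 0.80 ± 0.13 (adjusted p = 0.000501). The costimulatory receptor gene Cd27 differed the other way round, since both cytokines lay below medium. Its signals were 1803, 1796 and 1917 in medium, 1052, 974 and 978 with IL-6, and 1513, 1600 and 1722 with IL-27, a difference of 0.67 ± 0.10 (adjusted p = 0.000282). Cd5, an inhibitory receptor that tunes T cell receptor signals, showed the same order, at 5505, 5742 and 6380 in medium, 1586, 2054 and 1990 with IL-6, and 2901, 3913 and 3430 with IL-27. Its difference was 0.85 ± 0.11 (adjusted p = 5.37e-05).

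Cd28 and Cd6 were also higher with IL-27, by 0.53 ± 0.11 and 0.61 ± 0.13, and both lay below medium with either cytokine. Icos, the costimulatory receptor of follicular helper cells, was the member lower with IL-27, at 7048, 7036 and 7604 with IL-6 against 4599, 4328 and 5020 with IL-27, a difference of −0.64 ± 0.14. All 3 calls depended on single arrays. Without IL-6 replicate 1, IL-27 replicate 2 or IL-27 replicate 3 the adjusted p was 0.0519 to 0.0574 for Cd28 and 0.0549 to 0.0822 for Cd6. Without IL-6 replicate 3, IL-27 replicate 1 or IL-27 replicate 2 it was 0.0527 to 0.0773 for Icos, and median centring ended all 3 calls (0.0755, 0.177 and 0.0569).

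Interferon-inducible GTPases, which act on the vacuoles and membranes of intracellular pathogens, were higher with IL-27 in 10 of the 12 members tested and lower in none. Their median difference was 1.93, and the differences ran from 0.76 upward. All 12 had an unadjusted p under 0.05, against 718 of 11971 genes in that direction. Over the list, the median change from medium was 1.31 with IL-6 and 4.01 with IL-27. The count was 8 or 9 when single arrays were left out.

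Among the immunity-related GTPases, Irgm1 gave 400, 408 and 479 in medium, 1445, 993 and 1082 with IL-6, and 11556, 10639 and 10788 with IL-27. Iigp1 was measured at 589, 495 and 448 in medium, 3100, 3135 and 2564 with IL-6, and 27366, 26547 and 25544 with IL-27. Both genes formed 3 separate steps, medium, IL-6 and IL-27, with no array of one step within another. The differences were 3.21 ± 0.17 for Irgm1, or 9.26-fold, and 3.17 ± 0.15 for Iigp1, or 8.98-fold (adjusted p = 5.5e-10 and 7.51e-11). Irgm2, whose promoter stretch is shown above, read 1163, 1147 and 1242 in medium, 2372, 2120 and 2111 with IL-6, and 9976, 9794 and 10620 with IL-27. Igtp read 5372, 5808 and 5670 in medium, 13174, 13999 and 12706 with IL-6, and 57530, 49077 and 59454 with IL-27. These neighbours in sequence had similar differences, 2.19 ± 0.17 for Irgm2 and 2.05 ± 0.12 for Igtp. On the WT IL-27 arrays 12 to 31 genes had a signal above that of Igtp, so it lay near the top of the range. Its difference can be compressed there, which was not tested. Ifi47, a further member of the family, differed by 1.29 ± 0.08, and its groups did not overlap.

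The guanylate-binding proteins, the other branch of the list, fell into members with large differences and members with small ones. Gbp8 had signals of 2262, 1993 and 2311 with IL-6 and 15471, 16881 and 16604 with IL-27, a difference of 2.88 ± 0.10, the smallest adjusted p of the comparison (1.97e-12). Gbp6 had signals of 2054, 1798 and 2124 with IL-6 and 13492, 12250 and 14259 with IL-27, a difference of 2.72 ± 0.12. For both genes every IL-27 array stood above every IL-6 array by a wide margin. Gbp7 was at 6700, 5324 and 6322 with IL-6 and at 23246, 21277 and 20150 with IL-27, a difference of 1.82 ± 0.11.

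Gbp2 and Gbp3 were raised from medium by both cytokines, Gbp2 by 4.53 with IL-6 and 5.29 with IL-27 and Gbp3 by 3.14 and 4.04. Gbp2 had signals of 1743, 1541 and 1284 in medium, 39101, 35937 and 32257 with IL-6, and 66015, 58205 and 57778 with IL-27. The highest signal of any gene on the IL-27 arrays was 75260 to 82134, so Gbp2 lay near the top of the range. A rise can be compressed there, which was not tested. The difference between the cytokines was 0.76 ± 0.18 for Gbp2 (adjusted p = 0.0176) and 0.90 ± 0.22 for Gbp3 (adjusted p = 0.0297), so most of their rise from medium was seen with IL-6 too. Neither call was stable. Gbp2 lost it without IL-6 replicate 2, IL-6 replicate 3 or IL-27 replicate 1 (adjusted p 0.0604 to 0.102), with median centring (0.0664) and over the mean of its probe sets (0.204), and Gbp3 lost it without any one of the 6 arrays (0.053 to 0.157). Mx1 and Gm4951 were not called, at 0.84 ± 0.38 and 1.74 ± 0.47 (adjusted p = 0.411 and 0.0501).

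Antiviral interferon-stimulated genes were higher with IL-27 in 26 of the 67 members tested, and 1, Plscr1, was lower (1.77% and 1.37% of all genes). Their median difference was 0.49. At an unadjusted p under 0.05, 40 members were higher and 2 lower, against 718 and 607 of 11971 genes. The members called higher numbered 19 to 23 when single arrays were left out and 15 with median centring. Usp18, which removes ISG15 from proteins, had signals of 356, 393 and 303 in medium, 632, 312 and 326 with IL-6, and 1630, 1531 and 965 with IL-27. IL-6 arrays overlapped with medium and IL-27 arrays did not, and the cytokines differed by 1.66 ± 0.27 (adjusted p = 0.000665). The E3 ligase and antibody receptor Trim21 differed by 1.38 ± 0.10, from 1884, 1715 and 1794 with IL-6 to 4882, 4224 and 5089 with IL-27. Pml, which organises nuclear bodies, differed by 1.49 ± 0.16, from 639, 433 and 412 to 1257, 1451 and 1583.

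Other members of the list rose from medium with both cytokines and further with IL-27. Parp9 and Dtx3l, whose products form an ADP-ribosylation and ubiquitin ligase complex, differed by 1.14 ± 0.12 and 1.39 ± 0.14. Parp12 and Parp14 of the same enzyme family differed by 1.29 ± 0.16 and 0.87 ± 0.13. Samhd1, a hydrolase of deoxynucleotides, was at 19844, 18623 and 16562 with IL-6 and at 45429, 40061 and 38722 with IL-27, against 8891, 8699 and 6933 in medium. Zbp1, a sensor of Z-form nucleic acids, rose from medium by 2.62 (IL-6) and 3.82 (IL-27), a difference of 1.20 ± 0.21. All 6 genes had the 3 IL-27 arrays above the 3 IL-6 arrays.

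The IFIT genes, whose products bind viral RNA, did not all follow the same order relative to medium. Ifit3 rose with both cytokines, by 1.06 with IL-6 and 2.44 with IL-27, a difference of 1.38 ± 0.23. Ifit2 was at 1552, 1373 and 1622 in medium, 1278, 1275 and 1324 with IL-6 and 2161, 2205 and 2533 with IL-27. Here the IL-6 arrays lay below medium and the IL-27 arrays above it, with a difference of 0.81 ± 0.14. Ifit1bl1 followed that order, at 3031, 3544 and 3159 in medium, 2746, 2961 and 2427 with IL-6, and 13804, 10755 and 11065 with IL-27, a difference of 2.11 ± 0.13. Ifit1 differed by 1.39 ± 0.36, but its call was lost without any one array except IL-6 replicate 1 (adjusted p 0.0756 to 0.231) and under 4 other settings. Rtp4 differed by 1.01 ± 0.23 and lost its call without IL-6 replicate 2, IL-6 replicate 3 or IL-27 replicate 1 (0.0669 to 0.0985) and with median centring (0.0547).

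Plscr1, a phospholipid scramblase gene, was the one member called lower, and 62 of the 67 members had a difference above 0. Its signals were 7.08, 9.90 and 12.4 in medium, 328, 312 and 383 with IL-6, and 74.6, 5.83 and 39.0 with IL-27. The IL-6 arrays stood alone, the IL-27 arrays reached from the level of medium to several times above it, and the difference was −2.50 ± 0.34 (adjusted p = 0.000118). The low values are close to the constant added before the log, so the fold is compressed. Plscr1 passed the filter only through its 3 IL-6 arrays, so it could be tested only because it was high there. The same holds for 4 of the 164 genes called lower, Plscr1, Serpinb1a, AA467197 and G530011O06Rik (the last named after its values were seen), and for none of the 212 called higher. A second probe set of Plscr1, at 196, 201 and 220 with IL-6 and no more than 80.8 with IL-27, differed by −1.53 ± 0.39. It too was above the array median only on the 3 IL-6 arrays, so the same limit applies to it.

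Antigen processing for MHC class I was higher with IL-27 in 10 of 20 members tested and lower in none (1.77% and 1.37% of all genes). The median difference was 0.47. At an unadjusted p under 0.05, 13 members were higher, against 718 of 11971 genes. Nlrc5, the transcriptional activator of MHC class I genes, was at 2170, 1864 and 1716 in medium, 4542, 3970 and 4323 with IL-6, and 10212, 9541 and 10430 with IL-27, a difference of 1.23 ± 0.12 (adjusted p = 1.48e-06). The 3 subunits that replace their constitutive counterparts in the immunoproteasome were all higher with IL-27. Psmb9 was at 6231, 5920 and 6316 with IL-6 and 19925, 15897 and 15132 with IL-27, a difference of 1.45 ± 0.16. Psmb8 and Psmb10 differed by 0.80 ± 0.10 and 0.80 ± 0.11.

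The peptide transporter showed an order in which IL-6 stayed at medium. Tap1 had signals of 3045, 3370 and 3516 in medium, 3719, 3295 and 3691 with IL-6, and 9133, 7965 and 9038 with IL-27. Medium and IL-6 arrays overlapped and IL-27 arrays stood apart, with a difference of 1.28 ± 0.19 (adjusted p = 0.000331). Tap2 differed by 1.00 ± 0.10, Tapbp, which encodes tapasin, by 0.69 ± 0.12, and Tapbpl, which encodes a tapasin-related peptide editor, by 1.25 ± 0.15. The nonclassical class I genes H2-M3 and H2-T24 differed by 0.59 ± 0.14 and 1.01 ± 0.26. H2-M3 lost its call without IL-6 replicate 3, IL-27 replicate 1 or IL-27 replicate 2 (adjusted p 0.065 to 0.127) and with median centring (0.308), and H2-T24 without any one array except IL-6 replicate 3 (0.0611 to 0.177).

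The class I chains themselves did not pass the test. H2-K1 differed by 0.03 (95% interval −0.16 to 0.22), H2-D1 by 0.04 (−0.09 to 0.17) and B2m, the light chain, by 0.10 (−0.04 to 0.24). B2m signals were 51086, 50563 and 51417 in medium, 50920, 52337 and 55814 with IL-6, and 57134, 55410 and 57530 with IL-27. On each WT array between 14 and 27 genes had a signal above that of B2m, so it lies near the top of the range, where a rise can be compressed. That was not tested. Probes of near-identical H2 genes can share targets, so their values are uncertain. Of 14 constitutive proteasome subunits, Psma7 alone was called, at 0.35 ± 0.07, and not without IL-27 replicate 1 (adjusted p = 0.0515) or with median centring (0.535). The median of those 14 was 0.04. The summed signal of the myeloid markers was higher with IL-27, as given above, but most of that sum was Ctss.

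Transcription factors of the interferon pathway were higher with IL-27 in 4 of 11 interferon regulatory factor genes tested, and 1, Irf2bpl, was lower. Irf1 stood at 2871, 3192 and 2876 in medium, 5746, 6486 and 6195 with IL-6, and 20548, 19757 and 21277 with IL-27, a difference of 1.74 ± 0.09 (adjusted p = 4.99e-10). Irf8 was low in medium, at 108, 93.8 and 119, and stood at 139, 183 and 214 with IL-6 and at 935, 845 and 917 with IL-27, a difference of 2.16 ± 0.18. Both genes formed 3 steps without overlap. Irf9, part of the complex that binds ISRE, differed by 0.61 ± 0.09, from 3920, 3432 and 3165 with IL-6 to 5352, 5433 and 5227 with IL-27. Irf7 differed by 0.66 ± 0.15, a call lost without IL-6 replicate 2, IL-6 replicate 3, IL-27 replicate 1 or IL-27 replicate 3 (adjusted p 0.0657 to 0.125) and with median centring (0.209). Irf2bpl differed by −0.91 ± 0.19, a call lost without IL-27 replicate 2 (0.053) and with median centring (0.0501).

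Irf4, a factor of T cell activation and Th17 cells, was at 2190, 4164 and 3559 with IL-6 and 3225, 4127 and 4506 with IL-27. Its arrays overlapped, and the interval of the difference was wide, from −0.66 to 1.24. Among 6 STAT genes tested, Stat2, whose product is a partner of IRF9, was higher with IL-27, at 1299, 1263 and 1316 against 733, 568 and 547, a difference of 1.04 ± 0.17 (adjusted p = 0.000942). Stat3 was at 2940, 2562 and 2293 in medium, 9274, 9217 and 10319 with IL-6, and 7467, 7231 and 8547 with IL-27. Its IL-6 arrays lay above its IL-27 arrays, and the difference of −0.31 ± 0.12 was not called (adjusted p = 0.269).

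Tbx21 and Cxcl10 are textbook targets of the interferon pathway in Th1 cells. Tbx21, which encodes T-bet, was at 67.7, 82.6 and 38.8 in medium, 105, 131 and 83.9 with IL-6, and 394, 308 and 352 with IL-27. IL-6 arrays began just above the highest medium array and the IL-27 arrays stood well apart, with a difference of 1.47 ± 0.27 (adjusted p = 0.00262). Of 15 genes of the Th1 program, Tbx21 was the one called higher, while Id2 and Fasl differed by −0.94 ± 0.19 and −0.70 ± 0.17. These calls were lost without IL-6 replicate 3 or IL-27 replicate 2 for Id2 (adjusted p 0.0606 and 0.0552), and without any one array except IL-6 replicate 1 for Fasl (0.0535 to 0.168). Cxcl10, a ligand of the chemokine receptor CXCR3, was at 329, 116 and 130 in medium, 473, 189 and 116 with IL-6, and 2298, 1082 and 1375 with IL-27. Medium and IL-6 arrays overlapped and IL-27 differed from IL-6 by 2.60 ± 0.42 (adjusted p = 0.000718).

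Some of the largest differences lay outside these lists. Insl6, which encodes an insulin-like peptide, was at 172, 227 and 221 with IL-6 and 897, 937 and 848 with IL-27, a difference of 1.96 ± 0.35. Calhm6, of a family of ion channel subunits, was at 834, 881 and 824 with IL-6 and 3132, 3298 and 3393 with IL-27, a difference of 1.91 ± 0.25. In both, IL-6 arrays lay near medium (156, 123 and 183 for Insl6, 757, 972 and 708 for Calhm6). AW112010 and 9330175E14Rik, known here by their clone names, differed by 1.86 ± 0.22 and 1.82 ± 0.19, the latter 1.02 over the mean of its probe sets.

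**Figure D2:**
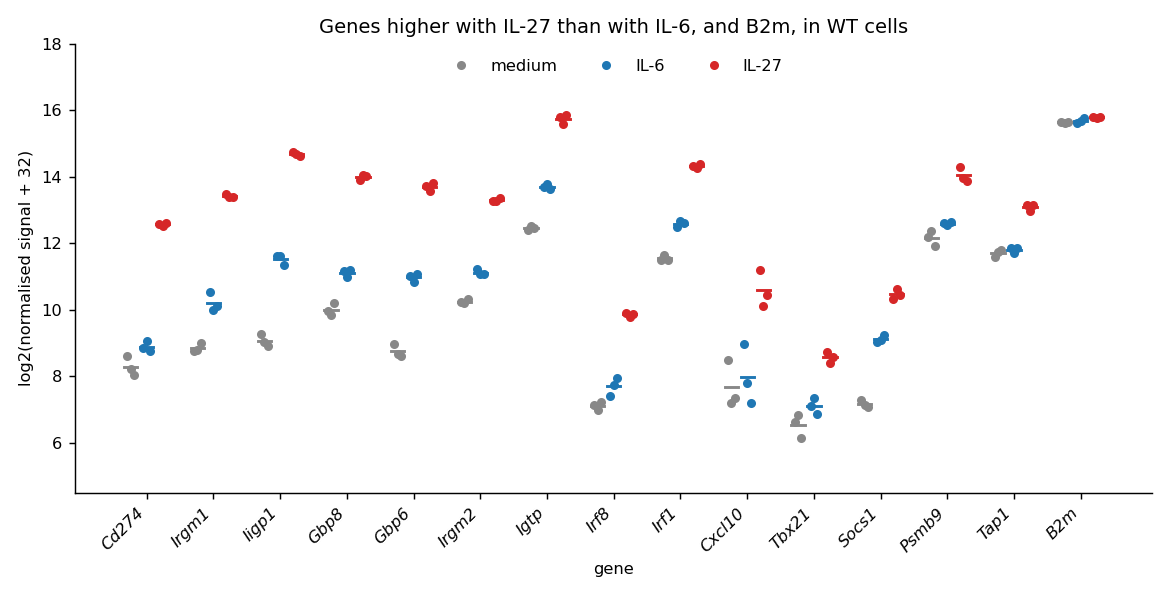
Normalised level (y axis, log2 of signal plus 32) of 14 genes higher with IL-27 than with IL-6 and of B2m in WT cells, for medium, IL-6 and IL-27, with one dot per array and bars at the means. The IL-27 dots of the 14 genes stand above all IL-6 dots, while the dots of B2m overlap.

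The receptor chain that both cytokines share reached a lower level with IL-27. Il6st was at 1395, 1398 and 1429 in medium, 2121, 2843 and 2904 with IL-6, and 1167, 1168 and 1257 with IL-27. On this probe set all IL-6 arrays lay above medium and all IL-27 arrays below it, and the cytokines differed by −1.10 ± 0.12 (adjusted p = 6.34e-06). Further probe sets of Il6st differed by −0.74, −0.69 and −0.48, none called. On that with −0.74 the IL-27 arrays, at 604, 662 and 727, did not lie below medium, at 586, 588 and 619. The difference was −0.75 over the mean of all kept probe sets, and was called. Il6st was the one gene called among 11 receptor chains and JAK kinases. The alpha chain gene of the IL-27 receptor, Il27ra, was at 1512, 1204 and 968 with IL-6 and 932, 888 and 713 with IL-27, without overlap, and its difference of −0.51 ± 0.14 was just outside the threshold (adjusted p = 0.0531), and inside it without IL-6 replicate 3 (0.0102), where the list had 2 genes called. Il6ra arrays overlapped, with an interval from −0.32 to 0.39.

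The feedback inhibitors split between the cytokines. Socs3 was at 536, 472 and 587 in medium, 10006, 11169 and 9392 with IL-6, and 2768, 3209 and 2509 with IL-27. Socs1 was at 125, 110 and 104 in medium, 497, 519 and 579 with IL-6, and 1241, 1554 and 1360 with IL-27. Both genes rose from medium with both cytokines, Socs3 further with IL-6 and Socs1 further with IL-27, with no overlap among the 3 conditions. The differences were −1.84 ± 0.15 for Socs3 (adjusted p = 2.37e-07) and 1.33 ± 0.20 for Socs1 (adjusted p = 0.000409). Of the 12 SOCS and PIAS genes, no other was called. Cish was lower with IL-27 by 0.54 ± 0.16 (adjusted p = 0.1).

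Reported STAT3 targets were lower with IL-27 in 13 of 39 members tested and higher in 1, Ccnd2. Their median difference was −0.34, with 17 lower and 2 higher at an unadjusted p under 0.05, against 607 and 718 of 11971 genes. The count lower was 10 to 13 when single arrays were left out. Relative to medium, the list had a median of 0.87 with IL-6 and 0.25 with IL-27. Sbno2, a transcriptional coregulator, was at 351, 354 and 437 in medium, 2165, 2179 and 2137 with IL-6, and 841, 848 and 681 with IL-27, a difference of −1.42 ± 0.13. Bcl3, an atypical inhibitor of the NF-kappa-B family, was at 745, 457 and 478 in medium, 4354, 3936 and 4037 with IL-6, and 2041, 2005 and 2100 with IL-27, a difference of −0.99 ± 0.15. In both the IL-27 arrays stood between medium and IL-6 without overlap.

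Other members of that list differed in how far their IL-27 arrays lay from medium. Hif1a, the oxygen-sensing transcription factor gene, was at 5729, 8100 and 6428 in medium, 16133, 15845 and 15940 with IL-6, and 6852, 7766 and 7373 with IL-27. Medium and IL-27 arrays overlapped, and the cytokines differed by −1.12 ± 0.16 (adjusted p = 0.000157). The AP-1 genes Junb and Batf were lower with IL-27 by 0.85 ± 0.13 and 0.85 ± 0.14, with Batf at 3079, 3784 and 3955 with IL-6 and 1814, 2087 and 2034 with IL-27, above the 979, 1101 and 1122 of medium. Arid5a, an RNA-binding regulator of message stability, differed by −1.10 ± 0.17, from 8933, 9466 and 10144 with IL-6 to 4790, 4217 and 4278 with IL-27. Prdm1, which encodes Blimp-1, was at 431, 496 and 432 with IL-6 and 245, 257 and 254 with IL-27, a difference of −0.77 ± 0.16 that missed the threshold without IL-6 replicate 2 (adjusted p = 0.0543). Pim1, a survival kinase gene, differed by −0.61 ± 0.12, a call lost with median centring (0.05). Ccnd2, which encodes cyclin D2, was at 3641, 3883 and 3952 in medium, 3472, 4346 and 3918 with IL-6, and 7426, 6765 and 7291 with IL-27, so IL-6 stayed within medium. The difference was 0.87 ± 0.17 (adjusted p = 0.00329). Bcl6 was not called, at −0.38 ± 0.16.

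The largest differences toward IL-6 included several signalling genes. Gadd45g, a stress sensor upstream of MAP kinases, was at 209, 325 and 207 in medium, 4051, 4304 and 3914 with IL-6, and 573, 547 and 573 with IL-27. Map3k8, the kinase TPL2 upstream of ERK, was at 206, 153 and 190 in medium, 1073, 1313 and 1309 with IL-6, and 209, 208 and 93.4 with IL-27. Gadd45g rose with IL-6, and its IL-27 arrays lay above medium without passing that test (1.12, adjusted p = 0.168), while the Map3k8 arrays of IL-27 spread over the level of medium. The differences were −2.79 ± 0.41 for Gadd45g and −2.70 ± 0.24 for Map3k8, or 6.91-fold and 6.50-fold (adjusted p = 0.000296 and 6.09e-07). Rragd, a Rag GTPase of the amino acid response, was at 1373, 1644 and 1836 with IL-6 and 437, 342 and 511 with IL-27, a difference of −1.84 ± 0.26, or −0.95 over the mean of its probe sets. Samsn1, an adaptor of lymphocyte signalling, was at 3502, 4949 and 5539 with IL-6 and 676, 1080 and 1097 with IL-27, a difference of −2.26 ± 0.30.

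Secreted, granule and transport genes stood beside them. Igfbp4, which encodes a binding protein of insulin-like growth factors, was at 1688, 1437 and 1575 in medium, 13526, 11605 and 10978 with IL-6, and 2530, 2079 and 2223 with IL-27. IL-27 lay a little above medium and IL-6 far above both, with a difference of −2.38 ± 0.11 (adjusted p = 5.25e-11). Gzma, the granule protease granzyme A, was at 43.9, 82.2 and 102 in medium, 1463, 958 and 764 with IL-6, and 189, 137 and 124 with IL-27, a difference of −2.55 ± 0.33. Serpinb1a, an inhibitor of neutrophil proteases, was at 2.66, 6.02 and 4.46 in medium, 256, 192 and 184 with IL-6, and 3.06, 7.06 and 3.58 with IL-27. Medium and IL-27 arrays were near 0 and the IL-6 arrays stood alone, with a difference of −2.72 ± 0.42. Serpinb1a passed the filter through its IL-6 arrays alone. The size of its difference depends on the added constant, being −3.45 with 16 and −2.00 with 64 in place of 32, and without the filter Serpinb1a was read from another probe set with −0.78 (adjusted p = 0.331).

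Among transporters and membrane genes, Slc30a4, a zinc exporter, was at 803, 834 and 723 in medium, 2651, 2804 and 2989 with IL-6, and 656, 664 and 719 with IL-27. Flot1, which encodes flotillin-1, was at 809, 599 and 570 in medium, 3227, 3325 and 3222 with IL-6, and 1313, 818 and 790 with IL-27. In both, the IL-27 arrays lay near medium, for Slc30a4 just below it, and the differences were −2.00 ± 0.15 and −1.75 ± 0.21. Elovl6, a fatty acid elongase, rose with both cytokines, to 5701, 6478 and 6364 with IL-6 and 2238, 1947 and 1836 with IL-27 from 399, 370 and 424 in medium, a difference of −1.61 ± 0.13. Myo6, which encodes a motor protein, differed by −2.14 ± 0.29 (−1.45 over the mean of its probe sets), and Ypel2 by −1.93 ± 0.34. Slco4a1, an organic anion transporter gene, differed by −2.17 ± 0.46 (−1.46 over the mean), and AA467197, which passed the filter through its IL-6 arrays alone, by −2.23 ± 0.47. The Slco4a1 call was lost without IL-27 replicate 1 (adjusted p = 0.0562), and that of AA467197 without IL-6 replicate 1 or IL-27 replicate 2 (0.0717 and 0.0599).

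**Figure D3:**
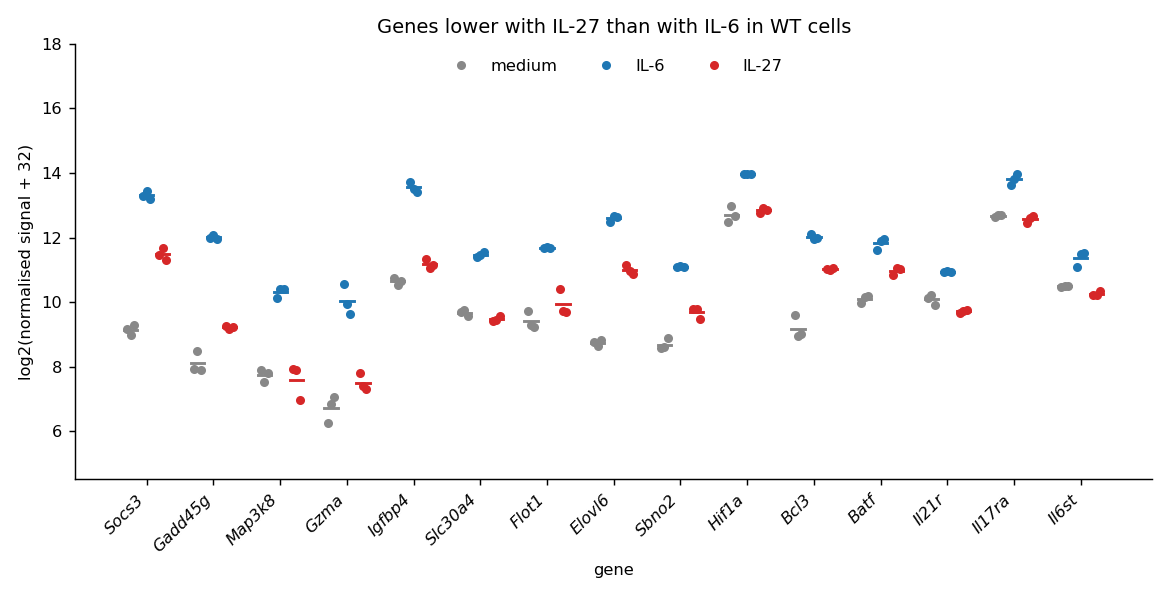
Normalised level (y axis, log2 of signal plus 32) of 15 genes lower with IL-27 in WT cells, for medium, IL-6 and IL-27, with one dot per array and bars at the means. The IL-6 dots stand above all IL-27 dots in each of the 15 genes, and the IL-27 dots lie near medium for genes such as Map3k8, Slc30a4 and Il17ra.

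Receptors of other cytokines were among the genes lower with IL-27. Of 23 cytokine receptor chains tested 4 were lower and 1, Tnfrsf1a, was higher. Il21r, the receptor of IL-21, was at 1090, 1165 and 930 in medium, 1904, 1983 and 1912 with IL-6, and 773, 817 and 839 with IL-27. Il17ra, the receptor of IL-17, was at 6364, 6616 and 6601 in medium, 12765, 14224 and 15897 with IL-6, and 5521, 6208 and 6482 with IL-27. IL-6 arrays stood above medium in both, while IL-27 arrays lay below it for Il21r and reached into its range at the lower edge for Il17ra. The differences were −1.22 ± 0.13 and −1.23 ± 0.12 (adjusted p = 5.34e-06 and 2.59e-06). Il4ra differed by −0.49 ± 0.09, a call lost with median centring and over the mean of its probe sets (adjusted p = 0.167 and 0.173). Tnfrsf1a differed by 0.66 ± 0.16, a call lost without any one array except IL-6 replicate 1 (0.0551 to 0.171).

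Follicular helper genes were lower with IL-27 in 5 of 18 members tested and higher in none (1.37% and 1.77% of all genes). Their median was −0.57. At an unadjusted p under 0.05, 10 members were lower, against 607 of 11971 genes. The 5 are Il6st, Batf and Icos, described above, Sh2d1a, the adaptor of SLAM receptors, and Cxcr5, the receptor that guides cells to follicles. Cxcr5 was at 254, 137 and 218 with IL-6 and 49.7, 68.3 and 111 with IL-27, a difference of −1.12 ± 0.30. The list count was 2 to 4 when single arrays were left out. Without IL-6 replicate 3, IL-27 replicate 1 or IL-27 replicate 2 it was at most 3. Cxcr5 was not called without IL-6 replicate 1, IL-6 replicate 3, IL-27 replicate 1 or IL-27 replicate 2 (adjusted p 0.14 to 0.203), nor with the deposited scaling, median centring, no filter or the 9 or 6 arrays alone (0.0501 to 0.0832). Sh2d1a, at −0.53 ± 0.12, was not called without any one array except IL-27 replicate 2 (0.0522 to 0.0997).

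Of 11 Th17 genes, Hif1a, Batf and Ahr were lower with IL-27 and none was higher. Ahr, a ligand-activated transcription factor, was at 222, 439 and 263 with IL-6 and 120, 103 and 199 with IL-27, a difference of −0.96 ± 0.26 at the edge of the threshold (adjusted p = 0.0468). It was not called without IL-6 replicate 2, IL-6 replicate 3, IL-27 replicate 1 or IL-27 replicate 2 (0.0895 to 0.3), nor with median centring, a constant of 16, no filter or the 60th percentile, the 9 or 6 arrays alone or the replicate block (0.0501 to 0.104). The regulatory T cell and IL-10 list had Prdm1 and Ahr lower among 15 tested, and neither without IL-6 replicate 2, while Ifng, Foxp3, Il10, Lag3, Ebi3, Gzmb and Cxcl9 were below the filter on dim signals.

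Adhesion and homing genes gave differences in both directions. Of 24 naive and homing genes tested 6 were higher and 4 lower with IL-27, and with median centring 4 and 1. Itga4, the alpha-4 integrin chain, was at 7127, 6794 and 7072 in medium, 2087, 1819 and 1952 with IL-6, and 3963, 4284 and 4709 with IL-27, a difference of 1.13 ± 0.12 (adjusted p = 7.45e-06). Itgb7, its partner chain in the integrin that binds gut endothelium, was at 1966, 1979 and 1830 in medium, 855, 1001 and 975 with IL-6, and 1851, 1681 and 1877 with IL-27, a difference of 0.91 ± 0.13. IL-6 lay below medium in both, and IL-27 lay between them for Itga4 and close to medium for Itgb7. Adgre5, which encodes the adhesion receptor CD97, showed the order of Itga4, with 6794, 6034 and 6342 in medium, 1925, 1728 and 1676 with IL-6, and 2986, 3134 and 2807 with IL-27. Itga6, the alpha-6 chain, differed by 0.50 ± 0.08, a call lost with median centring (adjusted p = 0.211).

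Smaller differences in this list were not stable. Cxcr4, a chemokine receptor gene, differed by 0.86 ± 0.22 and lost its call without any one array except IL-27 replicate 1 (adjusted p 0.0683 to 0.15). Nsg2 differed by 0.64 ± 0.15 and lost it without any one array except IL-27 replicate 3 (0.0594 to 0.102). S1pr1, the receptor for exit from lymph nodes, differed by −0.43 ± 0.10 and lost it without IL-6 replicate 3, IL-27 replicate 1 or IL-27 replicate 3 (0.0545 to 0.0797). The transcription factor gene Bach2 and the kinase gene Txk differed by −0.39 ± 0.08 and −0.46 ± 0.08, calls lost with median centring (0.415 and 0.21). Ccr7, the receptor for entry into lymph nodes, stayed level between the cytokines, at 16303, 16644 and 14815 with IL-6 and 15989, 16504 and 15791 with IL-27, with an interval from −0.12 to 0.16.

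Genes of T cell receptor signalling were higher with IL-27 in 4 of 22 tested and lower in 1, Txk (1.77% and 1.37% of all genes). Ptpn22, a phosphatase that restrains the receptor, was at 6550, 7513 and 9392 in medium, 2656, 3149 and 2915 with IL-6, and 4217, 5543 and 4754 with IL-27. IL-27 arrays lay between the other groups, and the difference was 0.72 ± 0.14 (adjusted p = 0.00454). Cd247, the zeta chain, differed by 0.38 ± 0.08, a call lost with median centring and over the mean of its probe sets (0.399 and 0.184). Cd5 and Cd6 are the other members.

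Activation and immediate early genes were lower with IL-27 in 6 of 41 tested and higher in 1, Dusp10 (1.37% and 1.77% of all genes). Gadd45g, Map3k8 and Junb are given above. Jund, of the same family as Junb, was at 7965, 9089 and 9113 with IL-6 and 5706, 6364 and 5737 with IL-27, a difference of −0.55 ± 0.09. Zfp36, which destabilises cytokine messages, and Fosl2 differed by −1.12 ± 0.27 and −0.51 ± 0.13. Zfp36 lost its call without any one array except IL-6 replicate 1 (adjusted p 0.0503 to 0.113), Fosl2 without any one except IL-27 replicate 3 (0.0698 to 0.168), and Dusp10 with median centring (0.0664). Cell cycle genes were lower in 2 of 23 (1.37% of all genes). Cdkn2d, an inhibitor of cyclin-dependent kinases, was at 6034, 6412 and 5839 with IL-6 and 2432, 2253 and 2174 with IL-27, a difference of −1.40 ± 0.18. Mcm4, a subunit of the replicative helicase, was at 5387, 5227 and 5428 with IL-6 and 2710, 2636 and 2922 with IL-27, a difference of −0.95 ± 0.10. In both, medium lay below IL-27 (1634, 2089 and 1795 for Cdkn2d, 2130, 2241 and 2303 for Mcm4).

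Metabolic lists held called members in both directions, against 3.14% of all genes called in either direction. Of 19 genes of fatty acid and sterol synthesis, Elovl6 and Fasn were lower and Scd2 was higher with IL-27. Fasn, the fatty acid synthase, differed by −0.89 ± 0.19 and lost its call without IL-6 replicate 1 or IL-27 replicate 2 (adjusted p 0.0654 and 0.0502), and Scd2, a desaturase, differed by 0.91 ± 0.22 and lost it without any one array except IL-27 replicate 3 (0.0575 to 0.138). Of 20 glycolysis and hypoxia genes, Hif1a and Ldha were lower and Pfkp was higher. Ldha, lactate dehydrogenase A, was at 11041, 12122 and 11282 with IL-6 and 7976, 7845 and 8400 with IL-27, a difference of −0.51 ± 0.10 that was not called with median centring (0.208). Pfkp, a phosphofructokinase, differed by 0.49 ± 0.11 and lost its call without IL-6 replicate 3 or IL-27 replicate 1 (0.0921 and 0.0714). For Pdk1 the probe set read was not called, at 0.79 ± 0.22 (adjusted p = 0.0651, limma fit of all probe sets). Further probe sets of Pdk1 differed in that fit by 1.03 ± 0.17, 0.68 ± 0.29 and 0.49 ± 0.23 (adjusted p = 0.00102, 0.364 and 0.48). None of 14 ribosomal protein genes and none of 17 heat shock genes was called in limma, with 0 and 2 at an unadjusted p under 0.05. The remaining lists held genes already named, with Cxcl10 and Cxcr4 higher and Cxcr5 lower among 14 chemokine genes, Gzma, Serpinb1a and Fasl lower among 11 cytotoxic genes, and Il4ra lower among 6 Th2 genes. The probe set read for the chemokine receptor gene Ccr2 was not called, at −0.72 ± 0.38 (adjusted p = 0.559, limma fit of all probe sets). In the same fit, further probe sets of Ccr2 differed by −1.87 ± 0.40, −1.72 ± 0.33 and −0.56 ± 0.27 (adjusted p = 0.00983, 0.0041 and 0.484). That with −1.72 was above the array median on 3 arrays only. Among 25 cell death genes, Tnfrsf1a was higher and Fasl and Bcl2l11 were lower, the last, a mitochondrial death factor, by −0.84 ± 0.16, a call lost with median centring (0.0577).

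**Figure D4:**
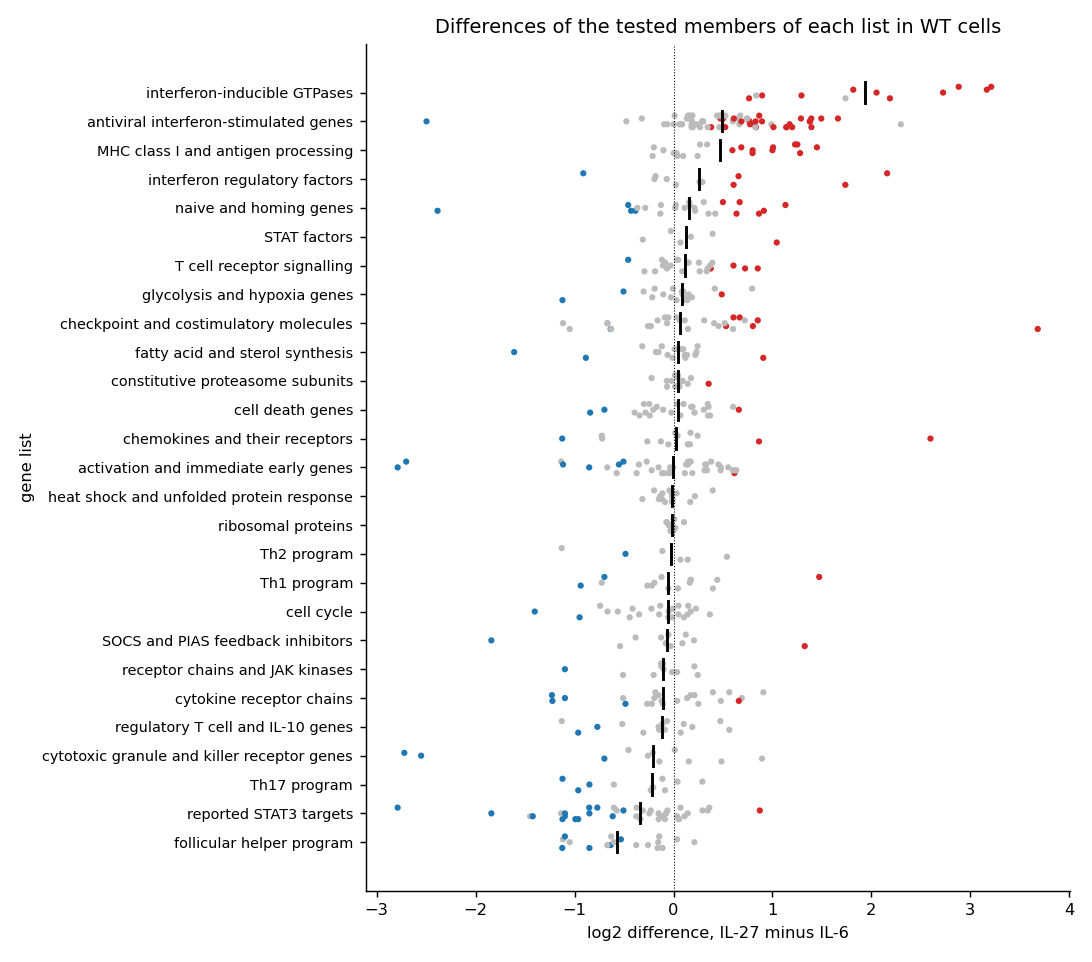
Difference between IL-27 and IL-6 in WT cells (x axis, log2 of signal plus 32) for each gene of the lists (rows), red where called higher with IL-27, blue where called lower, grey where not called, with a bar at the median of each list. The GTPases have the highest median, 1.93, and follicular helper genes a median of −0.57.

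Several genes changed from medium alike with both cytokines. Among genes called the same way and at least 2-fold with each, the 8 with the smallest differences were Vwa5a, Emp3, Rapgef6, Ecm1, Golm1, Ddx60, Icam1 and Il12rb2. Ecm1 was at 978, 1386 and 1400 in medium, 4539, 4602 and 3879 with IL-6, and 4140, 4265 and 4228 with IL-27, with an interval from −0.41 to 0.33. Rapgef6 was at 17420, 20245 and 19189 with IL-6 and 18359, 17963 and 19419 with IL-27, with an interval from −0.23 to 0.18. The cytokine arrays overlapped in both. Icam1, an adhesion ligand, had an interval from −0.17 to 0.40, and Vwa5a from −0.43 to 0.38. Intervals were wider for Golm1 (−0.66 to 0.57), Ddx60 (−0.63 to 0.50) and Il12rb2 (−0.88 to 0.64), and Emp3 ran from −0.43 to 0.38. Their small differences chose these 8 and are a description. Among other pathway genes, the kinase gene Pim2 rose by 2.05 with IL-6 and 2.20 with IL-27, with an interval from −0.12 to 0.40. Klf2, a factor of T cell quiescence, had an interval from −0.04 to 0.26, the IL-7 receptor gene Il7r one from 0.02 to 0.41 (adjusted p = 0.378), and Gata3 differed by 0.54 ± 0.19 without passing the test (adjusted p = 0.185). The 2 kept probe sets of Il21, a cytokine of follicular helper and Th17 cells, disagreed in size. The one read for the gene, at 95.9, 322 and 236 with IL-6 and 123, 126 and 110 with IL-27, differed by −0.60 ± 0.29 (adjusted p = 0.475), and by −1.03 without IL-6 replicate 1, which was called (0.0312). The other, at 282, 404 and 468 with IL-6 and 95.4, 18.2 and 59.1 with IL-27, differed by −2.29 ± 0.34 (adjusted p = 0.000419 in the fit of all probe sets). This probe set is the one read with the 60th percentile filter, which calls Il21 (0.000668), as does the mean of both. It was above the array median on 3 arrays only, those of WT cells with IL-6. It could thus be tested only because it was high there. Dph5, an enzyme of diphthamide synthesis, differed on either side of medium. It was at 1650, 1781 and 1698 in medium, 2093, 2554 and 2436 with IL-6, and 1208, 1330 and 1293 with IL-27, on opposite sides of medium, with a difference of −0.87 ± 0.11 (adjusted p = 7.37e-05).

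The promoter windows were compared with the direction of the difference. ISRE matches were found in 40 of 156 genes called higher with a window (25.6%), in 16 of 138 called lower (11.6%) and in 8.4% of all 9650 tested genes with one. GAS matches were found in 25 of those called higher (16%), in 18 of those called lower (13%) and in 8.39% of all. Among genes called with at least 2-fold, ISRE was found in 17 of 42 higher (40.5%) and 3 of 36 lower (8.33%), and GAS in 8 (19%) and 6 (16.7%). Over all 12267 windows each motif was found in 6.97%. These shares are descriptions with no test.

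The same comparison was made in STAT3-deficient cells, beginning with the deleted gene. Stat3 signals there were 1136, 1283 and 1126 in medium, 2526, 2208 and 2477 with IL-6, and 4464, 4608 and 3340 with IL-27, below WT in each condition. The labels do not place the probe set relative to the deleted part, so it may not measure the intact transcript. In STAT3-deficient cells 47 genes (0.393%) were called between IL-27 and IL-6, 46 of them higher with IL-27. Of the 212 genes higher in WT cells 28 were called higher there, which is 28 of the 46, and 1, Adgre5, was called lower. Of the 164 genes lower in WT cells none was called lower there, and Arid5b, Etv6, Ndrg3 and Vmp1 were called higher, a count of 4. The median difference of the WT genes was 0.14 in STAT3-deficient cells for those higher in WT (0.75 in WT cells) and −0.01 for those lower (−0.76 in WT cells). The WT arrays chose these genes, so part of the gap between these medians comes with the choice. A difference of that contrast between genotypes was called for 148 genes (1.24%), tested as an interaction in the same model. With median centring in place of quantile normalisation, 56 were called. The median deposited signal was 104.4 to 126.8 on the WT arrays and 131.5 to 190.4 on the STAT3-deficient arrays. What this difference between the arrays did to the comparison of genotypes was not tested.

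In 4 genes lower with IL-27 in WT cells, the IL-27 arrays of STAT3-deficient cells overlapped the IL-6 arrays or lay above them. Socs3 was at 585, 944 and 669 with IL-6 and 1014, 1138 and 1336 with IL-27, the reverse of the WT order, and the contrast differed between genotypes by 2.50 ± 0.21 (adjusted p = 1.8e-06). Igfbp4 was at 3150, 2714 and 2765 with IL-6 and 2844, 2559 and 2714 with IL-27, overlapping, with a difference between genotypes of 2.30 ± 0.15 (adjusted p = 9.98e-08). Il6st was at 1309, 1169 and 1191 with IL-6 and 1454, 1401 and 1241 with IL-27, and Map3k8 at 157, 188 and 282 and at 212, 269 and 299. Their contrasts differed between genotypes by 1.25 ± 0.16 and 3.00 ± 0.34.

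Genes higher with IL-27 in WT cells fell into those whose contrast differed between genotypes and those for which that was not shown. Igtp was at 52191, 47415 and 49996 with IL-6 and 56320, 47490 and 56001 with IL-27 in STAT3-deficient cells, overlapping, with a difference between genotypes of −1.96 ± 0.16 (adjusted p = 1.8e-06). Between 16 and 32 genes had a higher signal on those arrays, so Igtp lay near the top of the range with either cytokine, and compression there was not tested. Cd274 was at 3948, 2817 and 2864 with IL-6 and 9400, 10471 and 7467 with IL-27, still apart, and its contrast of 1.50 ± 0.17 differed from that in WT by −2.18 ± 0.25 (adjusted p = 3.91e-05). IL-6 arrays without STAT3 stood above those of WT for both genes. For Irf8 the contrast was 1.93 ± 0.18 without STAT3 and differed from WT by −0.23 ± 0.25. Socs1, Tbx21 and Cxcl10 kept contrasts of 1.84 ± 0.20, 1.32 ± 0.27 and 2.02 ± 0.42 there. Their differences between genotypes were 0.52 ± 0.29, −0.16 ± 0.39 and −0.58 ± 0.59, none called (adjusted p = 0.748, 0.998 and 0.957), which does not show that the genotypes are alike.

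**Figure D5:**
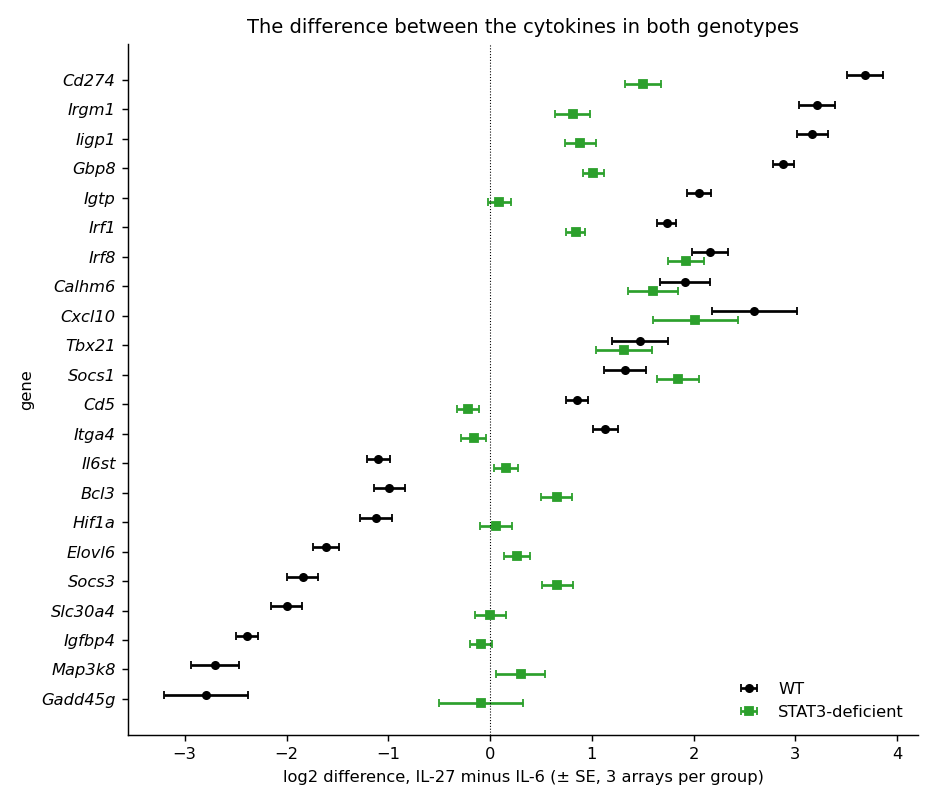
Difference between IL-27 and IL-6 (x axis, log2 of signal plus 32, bars are SE) in WT and in STAT3-deficient cells for 22 genes (rows), 3 arrays per group. Socs3, Igfbp4 and Map3k8 lie far below 0 in WT cells and near or above 0 without STAT3, and Irf8, Socs1, Tbx21 and Cxcl10 lie above 0 in both.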

How the data were processed

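The deposited table holds one value per probe set and array, a linear intensity that the authors made with GCOS (version not given), per the submitters' processing notes. Neither its scaling nor its summary method is stated. The table holds 45101 probe sets, of which 64 controls were left out. Array platform annotation gave 1 symbol to 34945, several to 932 and none to 9160, and only the first were used. Intensities were taken as log2(signal + 32) and quantile-normalised over the 18 arrays. A printed normalised signal is that value turned back. A probe set was kept if above its own array's median on at least 3 arrays, and each gene was read from the kept probe set with the highest mean. Group means of 6 groups of 3 were fitted in limma 3.58.1 (R 4.3.3) with a variance trend and 12 residual degrees of freedom, and p-values were adjusted over 11971 genes (Benjamini-Hochberg, threshold 0.05). The interaction is the contrast in STAT3-deficient cells minus that in WT. The median SE was 0.185.

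The script was tested on simulated data. Figures and promoter searches used Python 3.11.15, pandas 2.3.3 and matplotlib 3.10.9, and promoter windows came from RefSeq. Named are the 15 genes with the largest called differences in each direction, called list members, a fixed set of pathway genes, and the 8 genes changed alike by both cytokines. Members and lists were chosen with earlier results of these data known. Alternatives tried were the deposited scaling, median centring, constants of 16 and 64, no filter or one at the 60th percentile, means over or tests of every kept probe set, no variance trend, array weights, fits of only the 9 WT or 6 compared arrays, a 2-fold minimum, a replicate block and leaving out each array. Replicate numbers were not taken as pairs, since the labels do not say that a number marks a pair. Same-numbered IL-6 and IL-27 arrays deviated together with correlations of 0.187, 0.014 and 0.146, and differently numbered ones with −0.204 to 0.070. The second principal component of the 6 arrays held 23.6% of the variance. For replicates 1, 2 and 3 it was 12.1, 3.33 and −17.5 with IL-6 and 24.6, −4.58 and −17.9 with IL-27. Whether arrays of the same number share a source was not tested.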

Additional observations from a re-analysis of the deposited data

Results flagged for a closer look

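For 66 of the genes named, the difference between IL-27 and IL-6 differed between STAT3-deficient and WT cells at an adjusted p under 0.05 (limma interaction term, adjusted over 11971 genes). The number beside each gene is the contrast in STAT3-deficient cells minus that in WT, on the log2(signal + 32) scale. In WT cells, 29 of them were called higher with IL-27, 34 lower, and 3 were not called.

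Among genes higher with IL-27 in WT cells, the GTPases were Irgm1 (−2.40), Iigp1 (−2.28), Igtp (−1.96), Gbp6 (−1.91), Gbp8 (−1.87), Irgm2 (−1.49), Gbp7 (−0.89) and Ifi47 (−0.82). Antiviral and interferon factor genes were Ifit1bl1 (−1.56), Trim21 (−0.95), Irf1 (−0.89) and Irf9 (−0.62), and antigen processing genes, Nlrc5 (−0.94), Psmb9 (−0.94), Tapbpl (−0.90) and Tap2 (−0.66). Surface, adhesion and costimulatory genes were Cd274 (−2.18), Itga4 (−1.29), Adgre5 (−1.28), Cd5 (−1.07), Itgb7 (−0.87), Cd27 (−0.81), Cd28 (−0.78) and Itga6 (−0.64). The others were AW112010 (−1.50), Scd2 (−1.45), 9330175E14Rik (−1.31), Ptpn22 (−0.93) and Dusp10 (−0.85).

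Among genes lower with IL-27 in WT cells, the values were positive. Signalling and feedback genes were Map3k8 (3.00), Gadd45g (2.70), Socs3 (2.50), Samsn1 (2.05), Rragd (1.84) and Txk (0.69). Transcription and message regulators were Bcl3 (1.64), Sbno2 (1.55), Arid5b (1.40), Etv6 (1.35), Arid5a (1.27), Hif1a (1.18), Batf (0.85), Junb (0.84) and Jund (0.60). Receptors and surface genes were Flot1 (1.87), Tnfsf4 (1.68), Il6st (1.25), Il17ra (1.14), Il21r (1.00) and Il4ra (0.66). Transport, secreted, granule and lipid genes were Slco4a1 (2.76), Serpinb1a (2.74), Igfbp4 (2.30), Plscr1 (2.30), Slc30a4 (2.00), Elovl6 (1.88) and Fasn (1.21), and the rest were Myo6 (1.93), Vmp1 (1.50), Cdkn2d (1.30), Ndrg3 (1.21), Mcm4 (0.89) and Dph5 (0.79).

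The genes not called between the cytokines in WT cells were Bcl6 (1.28), Stat3 (1.07) and Rapgef6 (0.84), with adjusted p = 0.00431, 0.00168 and 0.00244 for the difference between genotypes. Stat3 is the deleted gene.

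The interaction was refitted with median centring and without each of the 12 arrays, and 29 of the 66 were called in all 13 fits. They include Cd274, Irgm1, Iigp1, Igtp, Gbp6, Gbp8, Irgm2, Itga4, Cd5, Bcl6, Socs3, Map3k8, Igfbp4, Il6st, Il21r, Elovl6 and Sbno2. Median centring alone ended the calls of Arid5a, Cd27, Dusp10, Gbp7, Hif1a, Ifi47, Il17ra, Il4ra, Irf1, Itga6, Nlrc5, Rapgef6, Stat3, Trim21 and Txk, with adjusted p between 0.0659 and 0.591. Leaving out at least 1 array ended those of 22 genes, 15 of which median centring ended too. Their highest adjusted p without an array was 0.145, for Tapbpl, and they include Batf (0.122), Psmb9 (0.118), Tap2 (0.0735), Plscr1 (0.0664, without WT IL-6 replicate 3), Gadd45g (0.0662), Irf9 (0.0546) and Cd28 (0.0542). With median centring, Tap2 was at 0.601, Irf9 at 0.528, Psmb9 at 0.435 and Cd28 at 0.212. Plscr1 and Serpinb1a passed the filter through WT IL-6 arrays alone. Igtp lay near the top of the signal range in STAT3-deficient cells with either cytokine and in WT cells with IL-27.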

How the results depend on the processing

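Centring arrays on their median moved the counts to 102 genes higher with IL-27, 103 lower and 56 with a difference between genotypes, from 212, 164 and 148, and 101 and 102 of the genes called in WT were also called with quantile normalisation. The share of calls that were higher was 49.8% in place of 56.4%. Testing every kept probe set gave 258 lower, array weights gave 252 differences between genotypes, and a 2-fold minimum gave 12, 5 and 8. Leaving out single arrays gave 154 to 171 higher, 123 to 141 lower and 106 to 143 between genotypes. With the replicate block, 339, 249 and 306 genes were called, but the labels do not say that a number marks a pair. Where calls were lost, the cause was not tested.

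No called difference of a named gene changed direction under the settings run. Differences near 0 did. Rapgef6 was 0.024 at deposited scaling and 0.000622 after median centring, and Il6ra and Irf4 were −0.043 and −0.035 over the mean of their probe sets. Without single arrays, the ranges were −0.034 to 0.0501 for Ccr7, −0.12 to 0.0049 for Ecm1, −0.016 to 0.058 for H2-K1, −0.14 to 0.28 for Il6ra, −0.086 to 0.022 for Rapgef6, −0.12 to 0.048 for Vwa5a, −0.13 to 0.034 for Emp3, −0.12 to 0.017 for Golm1, −0.23 to 0.16 for Ddx60 and −0.32 to 0.0796 for Il12rb2. Genes whose signals lie near the added constant have compressed differences.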

Other observations

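Some genes with stable differences belong to none of the lists, and the following were chosen after their values were seen. Wars, which encodes the tryptophan transfer RNA synthetase, was at 656, 587 and 603 in medium, 1243, 1000 and 971 with IL-6, and 4336, 3647 and 3432 with IL-27, a difference of 1.80 ± 0.18 (limma, adjusted p = 2.88e-06). H2-DMa, a chain of the MHC class II peptide editor, was at 625, 644 and 637 in medium, 331, 331 and 417 with IL-6, and 1039, 996 and 1026 with IL-27. Its IL-6 arrays lay below medium and its IL-27 arrays above it, with a difference of 1.43 ± 0.19 (adjusted p = 7.15e-05). Nampt, an enzyme of NAD synthesis, was at 1097, 1403 and 1255 with IL-6 and 3062, 2878 and 2973 with IL-27, while medium gave 908, 1235 and 1114.

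In the other direction, Tnfsf4, which encodes the costimulatory ligand OX40L, was at 149, 139 and 186 in medium, 376, 245 and 353 with IL-6, and 64.9, 116 and 60.7 with IL-27. IL-6 arrays lay above medium and IL-27 arrays below it, with a difference of −1.68 ± 0.27 (adjusted p = 0.000612). Sgk1, a kinase of salt and Th17 responses, was at 2153, 2249 and 1923 in medium, 4946, 5020 and 5072 with IL-6, and 1663, 1763 and 1768 with IL-27, the same order, with a difference of −1.52 ± 0.29 (adjusted p = 0.00364). Gpr183, an oxysterol receptor that guides cells in lymphoid tissue, was at 5444, 6398 and 5866 with IL-6 and 2864, 3062 and 3471 with IL-27, against 3511, 4192 and 4182 in medium, a difference of −0.91 ± 0.11 (adjusted p = 3e-05).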
